A study of Mus musculus with 12 samples.

Results

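The nuclear-encoded genes of the mitochondrial respiratory chain were followed in single-cell RNA-seq of sorted mouse T cells from WT mice and mice labelled Gfi1 KO. Members were chosen by name, as symbols starting with Nduf, Sdh, Uqcr, Cox4, Cox5, Cox6, Cox7, Cox8 or Atp5, without pseudogenes marked -ps, at a mean of at least 5 counts per 1000000 UMIs (CPM) over the 12 libraries. Of 33696 genes in the files, 100 symbols other than the single -ps entry had these prefixes and 91 of them reached the level. The members were 37 subunits and 8 assembly factors of complex I, 4 subunits and 4 assembly factors of complex II, 8 genes of complex III, 13 of complex IV and 17 of complex V. Their mean level ran from 9.59 CPM for Cox6b2 to 623 CPM for Ndufa4, with a median of 154 CPM. Of the 9 symbols below the level, Ndufb4b is a close copy of the member Ndufb4, and Ndufb4 is uncertain where reads fit both.

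Cells came from adult mice on a C57BL6/J background: γδ T cells sorted from the spleen, γδ T cells sorted from the thymus, and thymic double negative (DN) cells of stages DN1 to DN3 sorted together. The WT mice carried Gfi1, a zinc finger repressor of transcription, and the KO mice had a germline deletion of Gfi1 in every tissue. WT and KO cells of a compartment carried different hashtag antibodies and were run in 1 droplet pool, with 2 pools for each of the 3 compartments, which gives 2 WT and 2 KO libraries per compartment. The number of animals in a pool is not given in the sources used here, so each p-value below measures only the spread between libraries, which may be technical.

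Each library held 6795 to 11679 cells after filtering and 42091895 to 71663962 UMIs, with a median of 4947 to 6853 UMIs per cell. Transcripts of Gfi1 were not lower with the KO label in any compartment (11.8 and 18.0 CPM against 18.1 and 18.1 CPM in the spleen, WT before KO). The part of the gene that the 3′ reads cover may lie outside the deleted part, so this is no check of the labels, and the libraries are named here by their label. Summed CPM of 7 DN genes, Ptcra and Rag1 among them, was 1523 to 2094 in the DN libraries and 113 to 278 in the others, while 6 γδ and CD3 genes were abundant in all 12 libraries (3963 to 7835 CPM). Counts were summed over all cells of a library, so fewer cells of a type and less RNA per cell cannot be told apart in them. No cell barcode was shared by the libraries of 1 pool.

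The respiratory chain passes electrons from NADH through complex I, and from succinate through complex II, to ubiquinone, then through complex III and cytochrome c to complex IV, which reduces oxygen. Complexes I, III and IV pump protons across the inner membrane, and complex V, the ATP synthase, lets them back to make ATP. Most subunits are encoded in the nucleus and imported, whereas a core set is encoded by mitochondrial DNA. Proliferating thymocytes and IL-17-producing γδ T cells are both known for high mitochondrial activity.

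Promoters of the members were searched because nuclear respiratory genes are known targets of the factors GABPA, NRF1 and YY1. RefSeq windows of 300 bases (250 before and 50 after the start, mouse GRCm38.p6) were matched by symbol for 78 of the 91 members, which gave 83 windows. The motif CCGGAAG of GABPA, searched on both strands, was in 26.5% of member windows and in 8.86% of all 32851 windows of the table. GCGCATG of NRF1, which overlaps itself on the other strand where the full palindrome is present, was in 18.1% against 3.91%. AAGATGG of YY1 was in 14.5% against 6.34%, and AAATCA, the core bound by GFI1, in 4.82% against 14%. Of the matched members, 40 had at least 1 of the first 3 motifs. Median GC content was 59% in member windows and 52.7% in all windows, and its part in these shares was not tested. The windows below were read on the gene's strand, 5′ to 3′, with a motif match on either strand in capitals. The first 3 were each chosen for holding a pair of the motifs and belong to genes that rose in the spleen. Cox5a and Cox6b2 are shown because among the 91 members they had the highest fitted rise of complex IV in the spleen and the steepest fall in each compartment, and neither window holds a match.
Cox6a1, chr5:115348909-115349208, minus strand (GABPA, NRF1): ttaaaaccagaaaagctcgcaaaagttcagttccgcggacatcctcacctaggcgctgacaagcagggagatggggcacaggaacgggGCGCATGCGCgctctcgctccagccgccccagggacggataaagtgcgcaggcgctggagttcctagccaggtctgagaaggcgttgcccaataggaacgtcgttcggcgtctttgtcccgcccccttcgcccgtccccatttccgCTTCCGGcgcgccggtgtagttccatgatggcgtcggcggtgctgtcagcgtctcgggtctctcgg
Ndufb8, chr19:44555393-44555692, minus strand (NRF1, YY1): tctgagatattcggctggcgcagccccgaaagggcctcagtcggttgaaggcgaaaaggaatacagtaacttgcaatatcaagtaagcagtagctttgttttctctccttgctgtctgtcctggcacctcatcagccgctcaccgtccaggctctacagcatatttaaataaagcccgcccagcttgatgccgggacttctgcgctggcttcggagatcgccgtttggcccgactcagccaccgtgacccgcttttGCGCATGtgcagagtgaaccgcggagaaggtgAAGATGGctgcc
Ndufaf8, chr11:120098684-120098983, plus strand (GABPA, YY1): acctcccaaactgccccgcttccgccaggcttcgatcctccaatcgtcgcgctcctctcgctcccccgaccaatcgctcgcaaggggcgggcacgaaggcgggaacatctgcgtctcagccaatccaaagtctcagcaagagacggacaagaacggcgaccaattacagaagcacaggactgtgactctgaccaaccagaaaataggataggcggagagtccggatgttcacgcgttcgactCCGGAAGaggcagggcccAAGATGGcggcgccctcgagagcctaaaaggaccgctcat
Cox5a, chr9:57520982-57521281, plus strand: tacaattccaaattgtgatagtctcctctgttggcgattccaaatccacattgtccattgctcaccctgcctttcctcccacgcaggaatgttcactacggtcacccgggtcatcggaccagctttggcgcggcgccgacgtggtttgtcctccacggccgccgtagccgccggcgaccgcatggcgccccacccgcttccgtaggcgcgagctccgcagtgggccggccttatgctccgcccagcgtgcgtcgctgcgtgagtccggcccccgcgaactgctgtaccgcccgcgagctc
Cox6b2, chr7:4753045-4753344, minus strand: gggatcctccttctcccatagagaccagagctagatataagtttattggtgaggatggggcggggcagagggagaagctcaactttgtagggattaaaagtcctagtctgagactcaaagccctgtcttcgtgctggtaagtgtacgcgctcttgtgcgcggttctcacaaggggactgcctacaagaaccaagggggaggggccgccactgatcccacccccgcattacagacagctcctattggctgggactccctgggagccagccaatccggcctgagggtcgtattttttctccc

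The first comparison asks how the summed share of the 91 members in all UMIs of a library differed between WT and KO. In splenic γδ T cells the share was 1.38% and 1.31% in the WT libraries and 1.69% and 1.61% in the libraries labelled KO (1.34% ± 0.0494 against 1.65% ± 0.0572, SD, n = 2 each). Both KO libraries lay above both WT libraries, by 0.316 and 0.305 percentage points in the 2 pools. In thymic γδ T cells the order was the opposite. There the share was 1.75% and 1.81% in WT and 1.53% and 1.48% in KO, lower by 0.215 and 0.328 points in the 2 pools. In DN cells the share was 1.79% and 2.05% in WT and 1.57% and 1.91% in KO. Within each DN pool KO was lower, by 0.213 and 0.139 points, but the 4 libraries overlapped and the pools differed more than the genotypes. No test was made of these sums, and an exact permutation test of 2 against 2 libraries cannot go below p = 0.33.

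Complex IV took the steepest rise in the spleen and complexes III and V the steepest falls in the thymus. Complex IV genes made 0.388% and 0.367% of UMIs in the WT spleen libraries and 0.512% and 0.488% in KO, a ratio of the means of 1.32. The ratio was 1.26 for complex I subunits, 1.17 for complex III, 1.15 for complex V and 1.07 for complex II, whose subunits also serve the citric acid cycle. In thymic γδ T cells complex III went from 0.161% and 0.163% in WT to 0.131% and 0.130% in KO, and complex V from 0.526% and 0.547% to 0.441% and 0.421% (ratios 0.803 and 0.804). The other groups of subunits were at ratios of 0.843 to 0.876. The assembly factors of complex II, which insert cofactors into its subunits, had a ratio of 1.10 in the thymus, with 0.0113% and 0.0122% in WT against 0.0135% and 0.0124% in KO.

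The direction of the share depended on which cells were summed. Cycling cells, marked by at least 2 UMIs of 8 cell cycle genes, were 30.3% and 34.7% of the WT thymic γδ libraries and 14.2% and 12.1% of the KO ones. In WT thymic libraries the members made 2.04% and 2.08% of UMIs in cycling cells and 1.46% and 1.48% in non-cycling cells. Among non-cycling cells alone the KO thymic libraries had 1.47% and 1.43%, which overlapped with WT. In the spleen, where cells marked as cycling were 2.76% and 1.86% in WT and 9.76% and 8.54% in KO, the difference in non-cycling cells was as large as in all cells (1.33% and 1.29% against 1.68% and 1.61%). The 8 genes summed to 116 and 74.3 CPM in WT spleen and 103 and 78.1 CPM in KO. Of them 1 was called higher and 4 lower (28.6% and 26.1% of all genes), so the larger marked class came without more RNA of these genes. Restricting to cells of 4000 to 8000 UMIs left the spleen difference at 0.316 points. The same restriction turned the thymic difference to 0.0709 points in the other direction, with both KO libraries above both WT libraries. Per cell, the median member share was 1.46% and 1.53% in the WT thymic libraries and 1.46% and 1.44% in KO, while in the spleen it was 1.31% and 1.27% against 1.69% and 1.60%.

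Cells called Trgv6, the Vγ6 chain of γδT17 cells, were 188 and 229 in the WT spleen libraries and 3422 and 4613 in KO. Within these cells the member share was 1.71% and 1.51% in WT and 1.67% and 1.60% in KO, and the groups overlapped. Splenic WT cells outside this class had 1.37% and 1.30%, and splenic KO cells outside it had 1.72% and 1.63%. So KO cells not called Trgv6 were also above WT cells not called Trgv6. Cells without a called chain can still be of the Vγ6 type, so this class is not complete. The paper places nearly all splenic γδ T cells of KO mice in clusters of the Vγ6 type. The KO cells outside the class may therefore be mostly of that type, so this split cannot show a rise outside it. Whether the few WT cells in the class are of the same kind as the KO cells was not examined. In the DN libraries the share of cells with at least 2 UMIs of Ptcra, the pre-T cell receptor α chain, was 1.85% and 2.07% in WT and 1.69% and 1.93% in KO. The difference was -0.149 points there and -0.176 points over all DN cells.

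**Figure D1:**
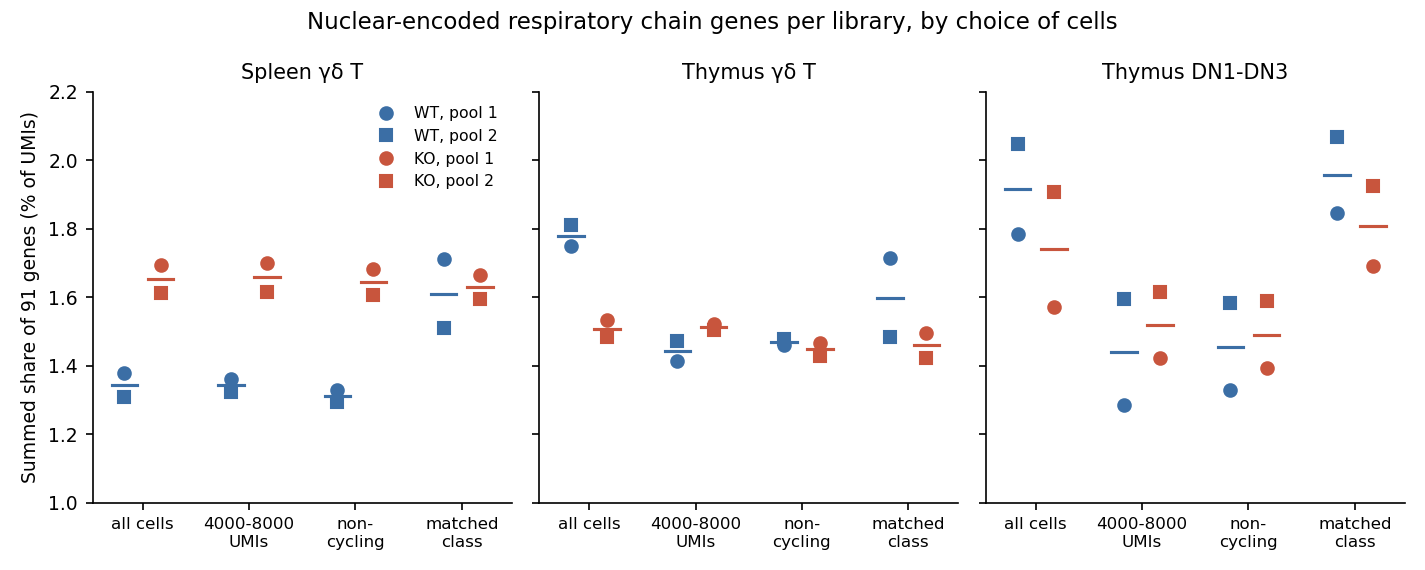
Summed share of the 91 genes (vertical axis, % of UMIs, starting at 1) in each library by compartment, over all cells, cells of 4000 to 8000 UMIs, non-cycling cells and a matched class (Trgv6-called cells in spleen and thymus γδ, cells with at least 2 Ptcra UMIs in DN). Circles are pool 1, squares pool 2 and bars means of 2 libraries; KO exceeds WT in the spleen except in the matched class, and in thymic γδ T cells the gap over all cells (1.78% against 1.51%) gives way to overlapping libraries in non-cycling cells.

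The size of the rise also depended on the denominator. Ribosomal protein genes took 22.4% and 21.8% of UMIs in the WT spleen libraries and 16.3% and 14.6% in KO. With the UMIs of ribosomal, Gm-named and mitochondrial genes left out of the total, the splenic share was 1.88% and 1.76% in WT and 2.12% and 1.96% in KO. Both KO libraries stayed above WT, by 0.220 points on average, and the ratio of the means went from 1.23 over all UMIs to 1.12. The members' median log2 ratio went from 0.24 to 0.11, and the number of members with a ratio above 1 from 75 to 64. The median of all genes moved with it, so members stood 0.33 above the median gene on either denominator. A denominator scales all genes of a library alike, so this gap is no separate check.

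The next comparison asks which members changed in splenic γδ T cells. In edgeR's quasi-likelihood fit over all 12 libraries, adjusted over 14914 genes, 45 of the 91 members rose with the KO label and 2 fell. Of all genes tested, 28.6% rose and 26.1% fell, so the share of members that rose (49.5%) was above this background and the share that fell (2.2%) below it. The median log2 difference of members was 0.34 and that of all genes 0.00, and 85 of 91 estimates were above 0. Before this scaling the medians over all UMIs were 0.24 for members and -0.08 for all genes. Members stood 0.33 and 0.34 above the median gene on the 2 scales, a gap that scaling of whole libraries hardly alters. In CPM, 67 members had both KO libraries above both WT libraries, where 34.8% of all genes did, and 6 had both below, where 43% did. With the pool as a replicate block 68 members rose and 2 fell (30.6% and 27.3% of all genes). Within Trgv6-called cells none rose in edgeR's fit, where 10 members had an unadjusted p below 0.05, and 1 fell, at background shares of 5.46% and 6.22% in these 188 and 229 WT cells. In non-cycling cells 42 rose and 4 fell (27.3% and 28.2% of all genes), and in cells of 4000 to 8000 UMIs 28 rose and 2 fell (25.5% and 26.1%). Leaving out WT replicate 1 or 2 left 27 and 15 rises (21.9% and 20.1% of all genes), and leaving out KO replicate 1 or 2 left 21 and 20 (23.3% and 20.8%). These were 29.7%, 16.5%, 23.1% and 22.0% of members, so with 3 spleen libraries the share of members that rose was close to the background, apart from the fit without WT replicate 1. Each of these fits had 2 falls, against 21.2%, 23.9%, 21.8% and 22.2% of all genes.

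Complex I subunits rose in 17 of 37 cases and fell in none, with a median of 0.34. Ndufa1, an X-linked subunit of the membrane arm, had the highest rise. It was at 119 and 110 CPM in the WT libraries and at 276 and 231 CPM in KO. Both KO libraries lay far above both WT libraries, and the log2 difference was 1.25 (SE 0.15, adjusted p = 7.4e-05). Ndufs5, another accessory subunit, stood at 113 and 104 CPM in WT and at 227 and 211 CPM in KO (log2 1.11, SE 0.15, adjusted p = 0.00012). Ndufv3, a small subunit of the NADH-binding arm, had 111 and 110 CPM in WT and 191 and 196 CPM in KO (log2 0.90, SE 0.12, adjusted p = 9.6e-05). Ndufb7 went from 153 and 142 CPM to 253 and 233 CPM (log2 0.82, SE 0.15, adjusted p = 0.00099). Values did not overlap for any of these, and each rise was called under 13 of 14 alternatives and lost within Trgv6-called cells, of which the WT libraries hold few. The log2 differences there were 0.66 for Ndufa1 (adjusted p = 0.067), 0.31 for Ndufs5, 0.20 for Ndufv3 and 0.18 for Ndufb7 (adjusted p = 0.21, 0.38 and 0.57). The paper's own test of Trgv6-positive splenic cells takes cells as units and is not comparable in its p-values. It lists Ndufa1, Ndufs5 and Cox5a as higher in KO, and Cox7a2l, Cox4i1 and Uqcrh, among other members, as lower. The most abundant complex I gene, Ndufa13, had 239 and 231 CPM in WT and 316 and 305 CPM in KO (log2 0.50, SE 0.14, adjusted p = 0.010; called under 11 of 14 alternatives, with 0.13 in Trgv6-called cells). Among catalytic core subunits, which were named after their values were seen, Ndufs3, Ndufs7 and Ndufs8 rose (log2 0.42, 0.34 and 0.37; adjusted p = 0.011, 0.026 and 0.031). Ndufs1, Ndufv1 and Ndufv2 had log2 differences of 0.07, 0.09 and 0.22 (adjusted p = 0.44, 0.65 and 0.23). Of 8 complex I assembly factors 4 rose, Ndufaf2, Ndufaf3, Ndufaf5 and Ndufaf8, with log2 differences of 0.51 to 0.81.

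Complex IV split. Of its 13 genes 9 rose and 2 fell, and its median of 0.52 was the highest of the groups. Cox5a, a nuclear-encoded accessory subunit, was at 248 and 236 CPM in WT and at 525 and 519 CPM in KO. The KO libraries were alike and far above WT, and the log2 difference was 1.21 (SE 0.12, adjusted p = 2.1e-05). Ndufa4, once counted to complex I and now to complex IV, was the most abundant member and went from 432 and 403 CPM to 684 and 692 CPM (log2 0.82, SE 0.13, adjusted p = 0.00045). Within Trgv6-called cells the estimates were 0.35 for Cox5a and 0.11 for Ndufa4 (adjusted p = 0.14 and 0.72). The genes that fell were Cox6b2 and Cox7a2l. Cox7a2l was at 399 and 406 CPM in WT and at 298 and 272 CPM in KO (log2 -0.40, SE 0.10, adjusted p = 0.0063). Unlike the rises named so far, the fall of Cox7a2l was also called within Trgv6-called cells, where it was the called member.

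Complex III rose in 4 of 8 genes and complex V in 6 of 17, where 28.6% of all genes rose, so the complex V share was near the background. Neither had a fall. Uqcrh, the most abundant complex III gene and its hinge protein, overlapped between groups (493 and 497 CPM in WT, 528 and 479 CPM in KO, adjusted p = 0.45). Atp5h, the d subunit of the ATP synthase stalk and the most abundant complex V gene, had 422 and 405 CPM in WT and 408 and 380 CPM in KO (log2 0.03, adjusted p = 0.90). The c subunit of the proton-driven ring is encoded by 3 genes. Atp5g3 went from 196 and 190 CPM to 283 and 296 CPM (log2 0.68, SE 0.12, adjusted p = 0.00084). Atp5g1 stood at 178 and 172 CPM in WT and 195 and 190 CPM in KO (log2 0.23, SE 0.17, adjusted p = 0.26). Atp5g2 stood at 330 and 332 CPM in WT and 293 and 273 CPM in KO (log2 -0.13, SE 0.14, adjusted p = 0.46). Whether these 3 differ from each other in response was not tested. In complex II, Sdhb, Sdhc and Sdhd rose (log2 0.34, 0.30 and 0.47; adjusted p = 0.040, 0.032 and 0.029; called under 6, 8 and 10 of 14 alternatives), and Sdha, the flavoprotein, did not pass, at 108 and 108 CPM in WT and 89.8 and 96.0 CPM in KO (log2 -0.12, adjusted p = 0.19).

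**Figure D2:**
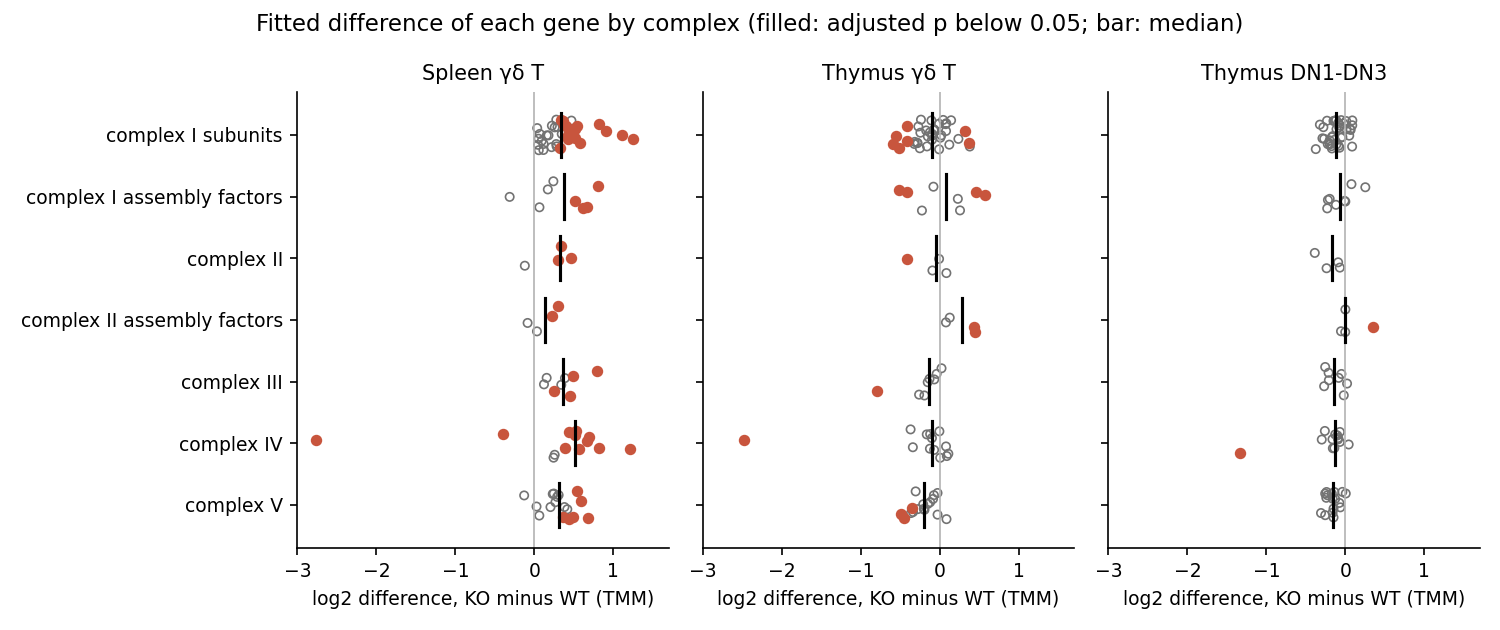
Fitted log2 difference of each of the 91 genes (horizontal axis, KO minus WT, TMM scaling) by complex in the 3 compartments; each point is 1 gene, filled where adjusted p is below 0.05, and bars are group medians. Spleen points lie mostly right of 0 in every group (median 0.34), thymic γδ points mostly left except assembly factors, and Cox6b2 lies far left in all 3 panels.

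The rise in the spleen moved together with other features of the libraries. Of the 4 αβ T cell genes Trac, Cd4, Cd8a and Cd8b1, summed CPM was 251 and 199 in WT and 60.0 and 65.2 in KO, and of 4 globin genes 41.8 and 37.1 in WT and 165 and 73.6 in KO. The NK cell genes Ncr1 and Klrb1c summed to 34.2 and 32.9 CPM in WT and 6.64 and 5.99 in KO. Trgv6-called cells, more numerous in KO as given above, are the class in which the member share overlapped. NK and myeloid cells had been depleted on magnets before the sort, and splenic cells were gated as CD3-positive and CD4-negative. The part of the αβ T, globin and NK cell signals in the result was not tested.

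The third comparison covers thymic γδ T cells. Here 6 members rose and 13 fell, at background shares of 26.1% and 23.7%, so both member shares (6.59% and 14.3%) were below those of all genes. The median was -0.10 for members and 0.00 for all genes, and 64 of 91 estimates were below 0. Before scaling the medians were -0.22 and -0.12. The members' median minus that of all genes was -0.10 on either scale, a gap that scaling of whole libraries hardly alters. In CPM, 68 members had both KO libraries below both WT libraries, where 48.3% of all genes did, and 8 had both above, where 32.5% did. With the pool as a replicate block 8 rose and 31 fell (27.8% and 26% of all genes). With ribosomal, Gm-named and mitochondrial genes kept, 4 rose and 18 fell (22.7% and 23.8%). The balance turned with the cells summed: in cells of 4000 to 8000 UMIs 21 rose and 2 fell (background 24.7% and 23.6%), and in non-cycling cells 14 rose and 4 fell (background 24.1% and 22.1%). In both choices the share of members that rose was not above the background, and the share that fell was below it. Within Trgv6-called cells, 41 and 57 in the WT and 2028 and 2691 in the KO libraries, edgeR called 0 rises and 2 falls (Cox6b2 and Ndufaf6; background 6.81% and 7.71%), and 10 members had an unadjusted p below 0.05. Cox6b2 had 1 and 4 UMIs in these WT cells and 6 and 8 in the KO cells of the class, too few to compare. Without WT replicate 1 or 2 the rises were 1 and 4 (18.8% and 18.5% of all genes) and the falls 6 and 3 (17.7% and 17%). Without KO replicate 1 or 2 the rises were 4 and 4 (22% and 19.8%) and the falls 8 and 3 (19.4% and 16.5%).

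The 13 falls came from all 5 complexes, with Cox6b2 of complex IV, described further on, the steepest. Uqcrq, a small subunit of complex III, was at 294 and 297 CPM in the WT libraries and at 157 and 155 CPM in KO. The KO level was close to that in the spleen of either genotype (132 to 163 CPM), and the log2 difference was -0.80 (SE 0.17, adjusted p = 0.0034). In complex I, Ndufc2 went from 218 and 236 CPM to 143 and 134 CPM (log2 -0.59, SE 0.16, adjusted p = 0.011). Ndufab1, the mitochondrial acyl carrier protein, went from 176 and 196 CPM to 117 and 115 CPM (log2 -0.55, SE 0.18, adjusted p = 0.025). Ndufb6 went from 97.0 and 98.8 CPM to 63.3 and 61.8 CPM (log2 -0.52, SE 0.15, adjusted p = 0.015). None of these 4 overlapped between genotypes. Of 14 alternatives, 12 kept the call for Uqcrq, 9 for Ndufc2 and 7 each for Ndufab1 and Ndufb6. The smallest falls among the alternatives were log2 -0.09 for Uqcrq, -0.12 for Ndufc2 and -0.08 for Ndufb6. In cells of 4000 to 8000 UMIs the estimate for Ndufab1 turned to 0.15 (adjusted p = 0.49). In complex V, 3 of 17 genes fell, Atp5b, Atp5o and Atp5pb, with log2 differences of -0.35 to -0.50.

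Assembly factors went both ways. Of the 12, 4 rose and 2 fell, where 26.1% of all genes rose and 23.7% fell. The rises were 4 of the 6 among members, while Ndufaf2 and Ndufaf6, which serve complex I, were among the 13 falls. Ndufaf6 went from 18.4 and 19.3 CPM in WT to 12.7 and 11.5 CPM in KO (log2 -0.51, SE 0.12, adjusted p = 0.0053), and was named after its values were seen. Ndufaf8, a complex I assembly factor, was at 46.1 and 48.6 CPM in WT and at 68.0 and 61.6 CPM in KO (log2 0.57, SE 0.14, adjusted p = 0.0068). Ndufaf5 stood at 13.8 and 14.6 CPM in WT and 17.1 and 18.7 CPM in KO (log2 0.46, SE 0.093, adjusted p = 0.0024), and its estimate was 0.06 in Trgv6-called cells (adjusted p = 0.94). Sdhaf4 and Sdhaf1, which assist the flavoprotein and iron-sulfur subunits of complex II, had log2 differences of 0.44 and 0.43 (adjusted p = 0.0066 and 0.0069). Sdhaf4 was at 28.3 and 33.8 CPM in WT and 38.6 and 38.9 CPM in KO. Sdhaf1 was at 22.5 and 22.9 CPM in WT and 30.4 and 26.1 CPM in KO. Again both KO libraries lay above both WT libraries for each. Of 14 alternatives, 13 kept the call for Ndufaf5 and 12 each for Ndufaf8, Sdhaf4 and Sdhaf1. The subunits among the rises were Ndufa13 (log2 0.37, adjusted p = 0.044; 235 and 236 CPM in WT, 287 and 272 CPM in KO; called under 7 of 14 alternatives) and Ndufv3 (log2 0.32, adjusted p = 0.041).

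Of the complex II subunits, Sdhb fell from 107 and 110 CPM to 81.8 and 67.6 CPM (log2 -0.42, SE 0.12, adjusted p = 0.018, called under 8 of 14 alternatives), while Sdha, Sdhc and Sdhd had log2 differences of 0.08, -0.01 and -0.09. Ndufa4 overlapped, at 626 and 671 CPM in WT and 614 and 641 CPM in KO (log2 0.08, adjusted p = 0.65). It was called higher in cells of 4000 to 8000 UMIs (log2 0.59, adjusted p = 0.0054) and in non-cycling cells (log2 0.39, adjusted p = 0.016). Of the c subunit genes, Atp5g1, Atp5g2 and Atp5g3 had log2 differences of -0.15, -0.20 and -0.28 (adjusted p = 0.48, 0.26 and 0.080). Within non-cycling cells Atp5g1 was called in the other direction, at 0.44 (adjusted p = 0.027). The inhibitor of the ATP synthase, Atpif1, is no member by its symbol. It was at 223 and 225 CPM in the WT thymic libraries and at 104 and 83.7 CPM in KO (log2 -1.14, SE 0.23, adjusted p = 0.0027), and at 89.4 and 63.9 against 71.2 and 62.7 CPM in the spleen, where values overlapped. The thymic fall of Atpif1 was called under each of 14 alternatives, Trgv6-called cells and non-cycling cells among them.

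In DN cells 1 member rose and 1 fell, at background shares of 15.2% and 7.72%. The median was -0.13 for members and -0.02 for all genes, and 77 of 91 estimates were below 0. The CPM ranges of WT and KO overlapped for 68 members, with 4 fully above (27.8% of all genes) and 19 fully below (31%). The count of falls depended on which libraries were kept. In the summed share pool 2 lay above pool 1 in both genotypes. Leaving out 1 library breaks the pairing by pool, so such a fit mixes the pool difference with that of genotype. Without KO replicate 2 no member rose and 44 fell (background 17.4% and 15.3%, median -0.36), and without any other single DN library none rose and 1 fell. In those 3 fits 8.62%, 9.38% and 9.72% of all genes rose and 2.33%, 3.2% and 2.94% fell. In cells of 4000 to 8000 UMIs 4 members rose and 1 fell (17.1% and 9.58% of all genes), and in non-cycling cells 3 and 1 (16.9% and 9.15%). With the pool as a replicate block 1 rose and 19 fell (16.4% and 12.3% of all genes). Sdhaf1 was the rise, at 22.0 and 23.1 CPM in WT and 28.5 and 29.1 CPM in KO (log2 0.35, SE 0.11, adjusted p = 0.040). Ndufa4 (653 and 735 CPM in WT against 616 and 705 CPM in KO) and Uqcrh (392 and 453 CPM against 389 and 428 CPM) overlapped between genotypes. Cox5a, at 565 and 610 CPM in WT and 463 and 518 CPM in KO, did not overlap and did not pass the test (log2 -0.26, SE 0.12, adjusted p = 0.15). In cells of 4000 to 8000 UMIs Ndufa4 was called higher with the KO label, at log2 0.46 (adjusted p = 0.034). Cycling cells were 47.6% and 44.2% of WT and 33.0% and 38.7% of KO, and αβ T cell genes summed to 27.3 and 31.3 CPM in WT and 164 and 72.0 CPM in KO. Most of this sum was Trac, at 18.8 and 20.7 CPM in WT and 154 and 65.6 CPM in KO. Cd4, Cd8a and Cd8b1 were not called in DN cells (log2 -0.22, 0.20 and -0.30). The NK cell genes Ncr1 and Klrb1c summed to 6.67 and 5.04 CPM in WT and 20.2 and 12.4 CPM in KO, and the part of these signals in the DN values was not tested.

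Cox6b2, the isoform of complex IV subunit 6B otherwise known from testis, fell in every compartment. In the spleen it was at 5.13 and 2.67 CPM in WT (216 and 159 UMIs) and at 0.619 and 0.460 CPM in KO (29 and 32 UMIs). In thymic γδ T cells it was at 9.57 and 9.08 CPM in WT and 1.61 and 1.45 CPM in KO. In DN cells, where it was most abundant, it was at 28.6 and 31.9 CPM in WT and 10.6 and 13.4 CPM in KO. Genotypes did not overlap in any compartment. The log2 differences were -2.76 (SE 0.33), -2.48 (SE 0.29) and -1.33 (SE 0.26), with adjusted p = 7.8e-05, 9.7e-05 and 0.0049. The fall was also called in non-cycling cells of each compartment (log2 -2.86, -2.82 and -1.67) and in Ptcra-positive DN cells (log2 -0.90). Within Trgv6-called spleen cells the WT libraries held 0 and 1 UMI of Cox6b2, too few to compare. Its ubiquitous counterpart Cox6b1 had a log2 difference of 0.52 in the spleen (adjusted p = 0.015) and was named after its value was seen.

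Other tissue-restricted isoforms were nearly absent, below the level for members. Cox8b, Cox8c and Ndufa4l2 had 5, 3 and 3 UMIs in the 12 libraries together, and Cox4i2 had 89. Cox7a1, the heart and muscle form of subunit 7A, had 24 and 23 UMIs in the WT spleen libraries and 168 and 206 in KO (0.570 and 0.386 CPM against 3.59 and 2.96 CPM; log2 2.89, SE 0.28, adjusted p = 1.4e-05). This rise was called under 13 of 14 alternatives, with log2 differences of 1.54 to 3.16. Trgv6-called spleen cells held only 2 and 1 UMIs of Cox7a1 in WT, against 87 and 80 in KO. In the thymus it was near 1 CPM in all 4 γδ libraries. Cox6a2, the heart and muscle form of subunit 6A, had 12 and 16 UMIs in the WT spleen libraries and 0 in both KO libraries. In DN cells Cox6a2 had 94 and 113 UMIs in WT and 7 and 27 in KO (log2 -2.35, SE 0.52, adjusted p = 0.011).

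**Figure D3:**
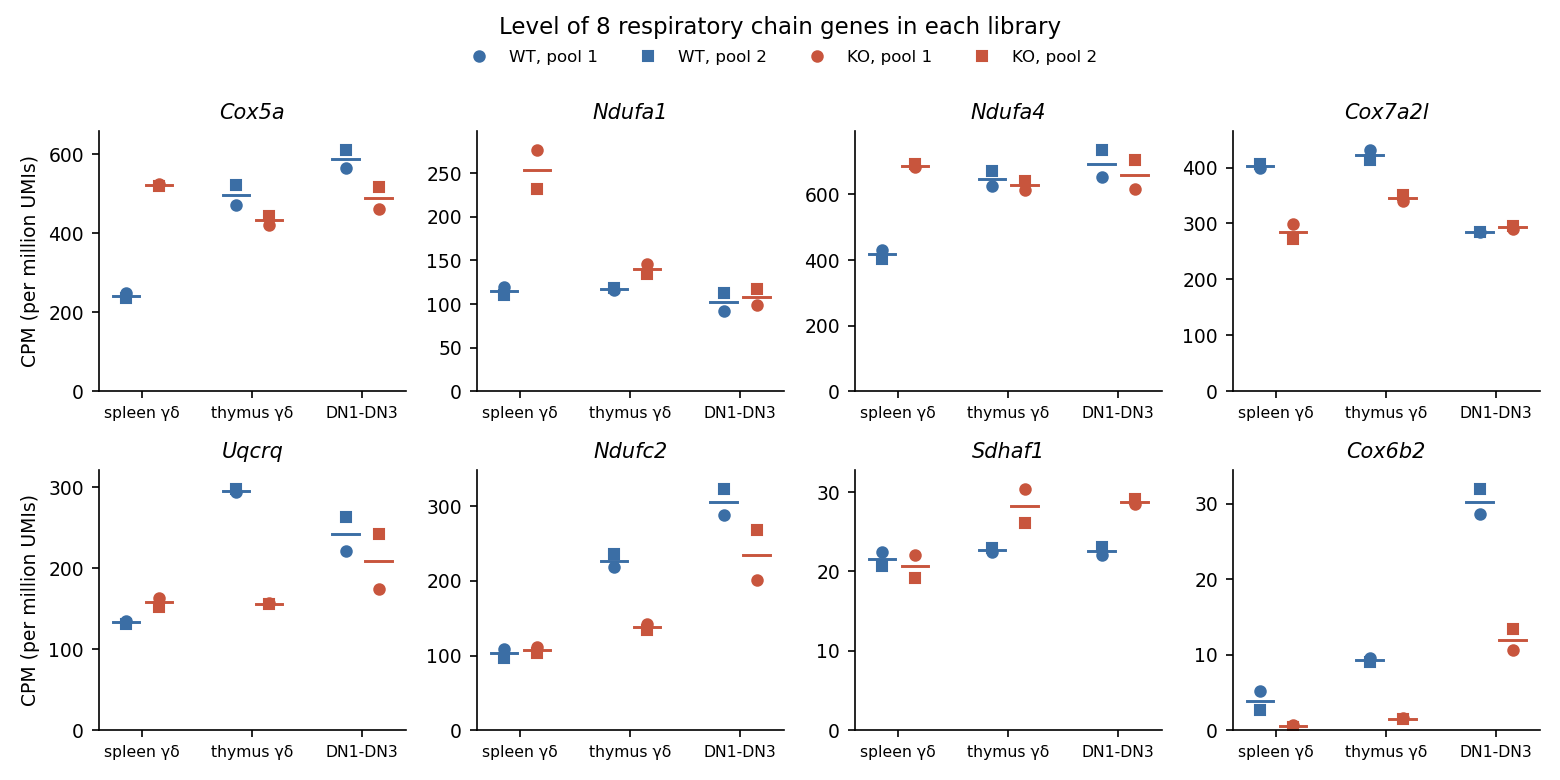
Level of 8 genes (vertical axes, CPM, each from 0) in the 12 libraries; circles are pool 1, squares pool 2, and bars means of 2 libraries. Cox5a and Ndufa1 differ between genotypes in the spleen, Uqcrq and Ndufc2 in thymic γδ T cells, and Cox6b2 in all 3 compartments.

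Whether the effect of the KO label differed between spleen and thymus was tested directly, as the spleen difference minus the thymic one. It was positive and called for 32 members and negative for none, at background shares of 13.6% and 15.9%. The median of members was 0.48 and that of all genes -0.05. With the replicate block 62 were positive and 1 negative (17% and 18.2% of all genes). In cells of 4000 to 8000 UMIs 2 and 1 were called (6.96% and 10.8%), in non-cycling cells 10 and 1 (8.94% and 13%), and within Trgv6-called cells none in edgeR's fit (0.966% and 1.18%), where 8 had an unadjusted p below 0.05. Leaving out 1 of the 4 spleen libraries left 6 to 17, and leaving out 1 of the 4 thymic libraries 6 to 17, where 6.35% to 10.5% of all genes were called positive. Cox5a had the highest value, 1.28 (SE 0.17, adjusted p = 0.00060). Its WT level was 248 and 236 CPM in the spleen against 472 and 521 CPM in the thymus, while its KO levels were 519 to 525 and 421 to 445 CPM. Uqcrq followed with 1.14 (SE 0.24, adjusted p = 0.0069) and Ndufaf2, a complex I assembly factor, with 1.09 (SE 0.17, adjusted p = 0.0012). Ndufaf2 was at 32.8 and 27.6 CPM in WT spleen and 41.4 and 48.5 CPM in KO, and at 49.4 and 52.0 CPM in WT thymus and 36.9 and 32.8 CPM in KO, so it rose in 1 tissue and fell in the other. By complex, the difference was called for 15 of 37 complex I subunits, 4 of 8 complex III genes, 4 of 13 complex IV genes and 6 of 17 complex V genes. It was called for none of the 4 complex II assembly factors, 3 of which had estimates below 0. Between thymic γδ and DN cells a difference was called for Ndufaf5 alone, at 0.47 (SE 0.13, adjusted p = 0.030; background 8.83% and 13%), which held under 5 of 17 alternatives and whose DN values were 18.4 and 16.1 CPM in WT and 17.9 and 16.4 CPM in KO.

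**Figure D4:**
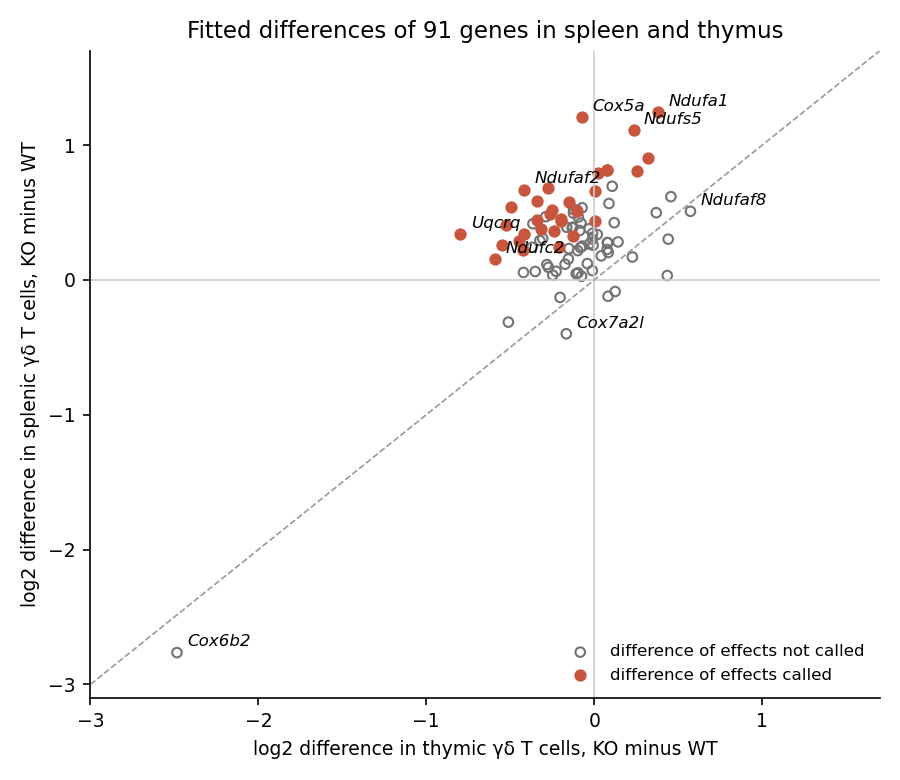
Fitted log2 difference (KO minus WT) of each of the 91 genes in thymic γδ T cells (horizontal axis) and in splenic γδ T cells (vertical axis); the dashed line marks equal effects, and filled points are the 32 genes whose effects differed at adjusted p below 0.05. Filled points lie above the line, and Cox6b2 lies at the lower left near it.

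Other mitochondrial genes are given by lists. The 13 subunits encoded by mitochondrial DNA, fitted with all genes kept, had medians of the opposite sign to those of the nuclear members. Their summed CPM was 30044 and 23765 in WT spleen and 27692 and 20289 in KO, and 23778 and 22836 in WT thymic γδ cells and 29680 and 32248 in KO. In the thymus 7 rose and none fell in edgeR's fit, with a median log2 of 0.45, where 22.7% of all genes in that fit rose and 23.8% fell. In the spleen 1 rose and 3 fell, with a median of -0.14, where 26.3% of all genes rose and 25.9% fell. There the sums of WT and KO libraries overlapped, and the share that fell was near that of all genes. A high share of these transcripts is also known as a sign of stressed cells, and their part in the member share was not tested. The counts of the next lists stand against 28.6% of all genes that rose and 26.1% that fell in the spleen, and 26.1% and 23.7% in thymic γδ T cells. Genes of the mitochondrial ribosome had medians of the same sign as the members: 27 of 78 genes rose and 3 fell in the spleen (median 0.26), and 2 rose and 18 fell in thymic γδ cells (median -0.13). The share of these genes that fell in the thymus was close to that of all genes. Of 13 citric acid cycle genes, 6 rose and 1 fell in the spleen and 2 rose and 1 fell in the thymus. Of 27 import genes (Tomm and Timm), 10 rose and 2 fell in the spleen and 4 rose and 4 fell in the thymus. Of 32 further chain genes that the prefixes miss, such as Cyc1 and the Cox assembly factors, 16 rose and 2 fell in the spleen, and 8 rose and 3 fell in the thymus, where their median of 0.16 had the opposite sign to that of the members. Of 4 carriers of phosphate, ADP and protons, 3 rose in the spleen.

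Among 16 tested regulators of mitochondrial genes, 3 rose and 7 fell in the spleen and 5 rose and 2 fell in thymic γδ cells, with the same background shares. Of the factors whose motifs were searched, Gabpa had log2 differences of 0.30 in the spleen (adjusted p = 0.0036) and 0.00 in the thymus (adjusted p = 0.98). Nrf1 had -0.20 and -0.27 (adjusted p = 0.10 and 0.040), and Yy1 had 0.19 and -0.04 (adjusted p = 0.081 and 0.70). Of the 39 matched members that rose in the spleen, 12 held the GABPA motif, 10 the NRF1, 6 the YY1 and 2 the GFI1 motif. Of the 37 that did not pass, 10, 5, 6 and 2 held them, which was not tested.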

How the data were processed

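Droplet 3′ libraries of hashtagged WT and KO cells were aligned by the authors with Cell Ranger 8.0.1 to GRCm39, demultiplexed by hashtag, which removed doublets of 2 genotypes, and deposited as raw UMI counts per gene and cell, 1 matrix per library. Doublets within a genotype were not treated. From these counts, barcodes under 500 UMIs or under 200 genes, or over 20% mitochondrial UMIs, were dropped (96911 of 97404 stayed) and summed per library. CPM used all gene UMIs. Ribosomal, Gm-named and mitochondrial genes (9545), which the study also leaves out, were left out of the fits. Per gene, edgeR 4.0.16 (R 4.3.3, limma 3.58.1) fitted all 12 libraries with TMM scaling, filterByExpr and a quasi-likelihood F test, with Benjamini-Hochberg adjustment over all 14914 genes and a threshold of 0.05. Cells were not used as replicates, unlike the study's rank test. SE is the log2 difference divided by the root of F. The script was tested on simulated data.

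Members, gene lists and tests were chosen with earlier results of these data known. Named in each compartment were up to 5 rises and 5 falls of largest size among called members with the same direction in both pools, up to 3 per sign for each difference between compartments, and in every compartment the most abundant gene of each complex, the c subunit and complex II genes, the ATP synthase inhibitor, Cox7a2l and the tissue-restricted isoforms. Replicate numbers mark a shared droplet pool within a compartment, and WT and KO deviations of the same pool correlated at 0.29 (spleen), 0.0629 (thymic γδ) and 0.175 (DN) over genes. Alternatives were RLE scaling, DESeq2 1.42.0, no low-count filter, all genes kept, 4 libraries only, the replicate block, each library left out, all barcodes, and 3 other choices of cells (4000 to 8000 UMIs; under 2 UMIs of 8 cell cycle genes; Trgv6 as the single leading Trgv gene, or at least 2 Ptcra UMIs in DN cells). Cells of 1 pool share free RNA, which was not removed. Depth was 42091895 to 71663962 UMIs per library. Counting error, largest relative to the level for genes of a few UMIs, was not compared with the spread between libraries.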

Additional observations from a re-analysis of the deposited data

Results flagged for a closer look

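The effect of the KO label differed between splenic and thymic γδ T cells for 15 of the genes chosen by the naming rule given above. Most of these genes were named for a large spleen rise, thymic fall or spleen-thymus difference in these same data. The count therefore partly follows from the choice and cannot be set against all genes, of which 13.6% were called positive and 15.9% negative. Fewer members were called when the cells summed were restricted, as given above. The test was edgeR's, of the spleen difference minus the thymic one, adjusted over 14914 genes, with 2 libraries per group. Among complex I genes the values were 0.87 for Ndufa1 (adjusted p = 0.013), 0.88 for Ndufs5 (0.011), 0.58 for Ndufv3 (0.023), 0.74 for Ndufb7 (0.023), 0.75 for Ndufc2 (0.032), 0.81 for Ndufab1 (0.035), 0.93 for Ndufb6 (0.0093) and 1.09 for the assembly factor Ndufaf2 (0.0012), all on the log2 scale. Of these, Ndufb6 and Ndufaf2 rose in the spleen and fell in the thymus, each past the threshold. Genes mentioned outside that rule also differed, such as Atp5pb (1.03, adjusted p = 0.0028), Ndufb8 (0.77, adjusted p = 0.014) and Ndufs8 (0.69, adjusted p = 0.018).

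The value was 0.75 for Sdhb of complex II (adjusted p = 0.0099), which also rose in the spleen and fell in the thymus, though these calls held under 6 and 8 of 14 alternatives, and 1.14 for Uqcrq of complex III (0.0069). It was 1.28 for Cox5a (0.00060), 0.74 for Ndufa4 (0.014) and 2.52 for Cox7a1 (0.0011) of complex IV, 0.96 for the c subunit gene Atp5g3 (0.0026) and 1.04 for the inhibitor Atpif1 (0.039). Between thymic γδ and DN cells the effect differed for Ndufaf5, by 0.47 (adjusted p = 0.030), a call that held under 5 of 17 alternatives, with adjusted p from 0.015 to 0.859.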

How the results depend on the processing

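RLE scaling, DESeq2, no low-count filter, all genes kept and all deposited barcodes left the counts of members called in each compartment within 1.5 times. For the difference between thymic γδ and DN cells, 1 in the report, DESeq2 gave 2 and no filter and all genes kept gave 0. With the replicate block, which pairs libraries by pool, 68 members rose in the spleen, 31 fell in the thymus, 19 fell in DN cells, and 63 and 8 differed between spleen and thymus and between thymus and DN. No named gene lost its call under the block. With only the 4 libraries of a compartment 31 fell in the thymus and none rose in DN cells in edgeR's fit. The shares of all genes called in these fits are not given here, so the counts cannot be set against a background. The same holds for the counts that differed between thymus and DN under each alternative. In cells of 4000 to 8000 UMIs, 28 rose in the spleen, 21 rose and 2 fell in the thymus, 4 rose in DN cells, and 3 and 4 differed; the summed share turned to 0.0709 points in the thymus and 0.0798 in DN cells. In non-cycling cells 4 fell in the spleen, 14 rose and 4 fell in the thymus, 3 rose in DN cells, and 11 and 4 differed; the summed share was -0.0208 points in the thymus and turned to 0.0354 in DN cells. In the matched class 0 rose and 1 fell in the spleen, 0 rose and 2 fell in the thymus and 0 and 0 differed, with share differences of 0.0209 and -0.140 points. Over UMIs outside the genes left out by name the share differences were 0.220 points in the spleen and -0.329 in the thymus. Cycling, depth and receptor class differ together between genotypes, and the cause was not tested. Leaving out 1 library gave 15 to 27 rises and 2 to 2 falls in the spleen, 1 to 4 and 3 to 8 in the thymus, 0 to 0 and 1 to 44 in DN cells, 6 to 17 and 0 to 11 members that differed, and summed share differences of 0.270 to 0.351, -0.302 to -0.241 and -0.344 to -0.00806 points. Among single genes, Ndufa4 in DN cells turned to 0.46 (4000 to 8000 UMIs) and 0.36 (non-cycling), Atp5g1 in the thymus to 0.61 and 0.44, and Ndufab1 in the thymus to 0.15 (4000 to 8000 UMIs). Isoforms with a few UMIs and the Trgv6-called WT cells, 41 to 229 per library, give little depth, and each group has 2 libraries.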

Other observations

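In all 12 libraries the summed member share was higher in cycling than in non-cycling cells. In DN cells it was 2.00% and 2.29% in cycling against 1.33% and 1.58% in non-cycling WT cells, and 1.78% and 2.15% against 1.39% and 1.59% in KO. In splenic KO cells the gap was small, 1.78% and 1.67% against 1.68% and 1.61%, and in splenic WT cells it was 2.11% and 1.74% against 1.33% and 1.29%. Of the 8 cell cycle genes 1 was called higher and 4 lower in KO spleen, where 28.6% and 26.1% of all genes were. Whether the marked splenic cells of the 2 genotypes are alike was not tested. Cells were marked as cycling by their UMIs of cell cycle genes, so deeper cells are marked more often. The median depth was 6853 and 6850 UMIs over all WT thymic γδ cells and 5899 and 5863 over the non-cycling ones.

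Over all WT cells the share rose from the spleen (1.34% ± 0.0494) to thymic γδ T cells (1.78% ± 0.0434) and DN cells (1.92% ± 0.186, SD, n = 2 each). Thymic γδ and DN libraries overlapped and the spleen lay below both. In the same order, the WT means in cells of 4000 to 8000 UMIs were 1.34%, 1.44% and 1.44%. In non-cycling cells they were 1.31%, 1.47% and 1.46%, so the step from thymic γδ to DN cells was absent in both choices. Over all cells of the libraries labelled KO the means were 1.65%, 1.51% and 1.74%. These differences between compartments were not tested.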
